A study of Rattus norvegicus with 18 samples.

Results

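AP-1 and immediate early transcription factors were followed by RNA sequencing in 18 libraries of rat astrocytes given interferons, a mix of inflammatory proteins, or both. The genes were chosen by symbol: Fos, Fosb, Fosl1, Fosl2, Jun, Junb, Jund, Egr1, Ier2 and Ier3, 10 symbols in all. Of these, 9 were among the 10431 named genes of the deposited table, and Fosb was not analysed here. All 9 were among the 10296 genes tested, which had a level of at least 1 FPKM (fragments scaled for gene length and library size) in at least 3 libraries.

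The cells were primary astrocytes immunopanned from the brains of postnatal day 5 rats, which means that they were picked out of a cell suspension with antibodies on coated dishes. Strain, sex and genotype were not given in the sources used here. Control cells received PBS. Other cells received interferon gamma (IFNγ, 3 ng/ml), interferon beta (IFNβ, 1000 U/ml), or a mix of TNFα at 30 ng/ml, IL1α at 3 ng/ml and C1q at 40 ng/ml, called TIC. The remaining groups received TIC together with IFNγ or with IFNβ. Each of the 6 groups held 3 libraries, taken after 24 h. These doses are those of the labels, and a legend deposited with the table gives other doses for both interferons and C1q, so nothing below rests on a dose. Nothing in the labels ties the replicates to different cultures or litters, so each p-value reflects the spread between these libraries alone, which may be technical. The read depth behind the FPKM is unknown.

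AP-1 is a family of dimers in which a JUN protein pairs with a FOS protein or with another JUN protein through a leucine zipper, and the dimer binds short DNA sites near many stress, growth and inflammatory genes. FOS proteins do not form stable pairs with one another, so the supply of JUN proteins and the make-up of the FOS family together set which dimers can form. Fos, Egr1 and Ier2 are classic immediate early genes, transcribed within minutes of a stimulus through MAP kinases and pre-existing factors, while FOSL1 and FOSL2 proteins are known to accumulate later and to last longer. TNF and IL1 receptors feed the JNK, p38 and NF-κB pathways, and interferon receptors feed STAT factors. The libraries were made a day after treatment, so they hold the late state of these genes and not their first burst.

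Promoter stretches are shown for genes that moved with treatment and for Egr1 and Ier2, as the letters in which sites of AP-1 and related factors were searched. RefSeq sequences of assembly GRCr8 were matched by symbol for 6 of the 9 genes, Fosl1, Fosl2, Junb, Jund, Egr1 and Ier2. The 250 bases before the annotated start are printed 5′ to 3′ on the gene's strand, or 40 bases around a site for Jund and Ier2. Capitals mark the EGR site in Fosl2, the CArG boxes in Egr1 and the cAMP response element in Jund and Ier2. Fosl1 lies on the plus strand at chr1:212183635-212183884, Fosl2 on the minus strand at chr6:30039270-30039519, Junb on the plus strand at chr19:40080876-40081125 and Egr1 on the plus strand at chr18:26736828-26737077. The 40-base windows are chr16:18769969-18770008 on the minus strand for Jund and chr19:40399291-40399330 on the plus strand for Ier2.
Fosl1: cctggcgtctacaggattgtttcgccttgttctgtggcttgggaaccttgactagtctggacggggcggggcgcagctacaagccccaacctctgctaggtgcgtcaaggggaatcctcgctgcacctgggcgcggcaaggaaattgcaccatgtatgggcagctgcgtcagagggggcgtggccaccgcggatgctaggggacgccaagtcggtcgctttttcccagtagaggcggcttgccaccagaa
Fosl2: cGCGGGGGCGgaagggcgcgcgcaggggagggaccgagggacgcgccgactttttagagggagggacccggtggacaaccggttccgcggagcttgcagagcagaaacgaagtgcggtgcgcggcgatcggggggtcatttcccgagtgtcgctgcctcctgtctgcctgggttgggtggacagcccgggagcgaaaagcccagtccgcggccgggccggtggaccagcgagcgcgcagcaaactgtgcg
Junb: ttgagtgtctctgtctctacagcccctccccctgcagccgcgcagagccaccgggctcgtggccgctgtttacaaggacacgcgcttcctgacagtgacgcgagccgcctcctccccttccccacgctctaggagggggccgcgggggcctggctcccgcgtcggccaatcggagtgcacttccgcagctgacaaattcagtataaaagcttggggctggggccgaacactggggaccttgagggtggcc
Egr1: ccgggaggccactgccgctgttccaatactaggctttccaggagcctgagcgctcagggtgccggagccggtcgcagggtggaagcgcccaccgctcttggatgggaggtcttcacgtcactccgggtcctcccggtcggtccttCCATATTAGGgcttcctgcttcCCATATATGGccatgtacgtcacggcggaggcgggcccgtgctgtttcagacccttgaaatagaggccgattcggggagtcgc
Jund: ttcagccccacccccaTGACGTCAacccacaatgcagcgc
Ier2: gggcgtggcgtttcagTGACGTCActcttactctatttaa

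Each window was searched on both strands for 7 motifs, and every share below is of 33465 RefSeq promoters cut to the same length. The AP-1 site TGANTCA, found in 6.34% of promoters, had no match in any of the 6 windows. The cAMP response element TGACGTCA, which binds JUN dimers with ATF factors and CREB, was found in 1.59% of promoters and here in Jund and Ier2. Its first base lay at position -221 in Jund and -66 in Ier2, counted from the start of transcription. CArG boxes, which bind serum response factor, were found in 1.5% of promoters, and the Egr1 window held 2, starting at -105 and -83. The EGR site GCGNGGGCG, bound by EGR1, was found in 4.29% of promoters, in Fosl2 at -249 and at 3 places in Jund, -139, -76 and -31. A STAT site of the form TTCNNNGAA was in 7.67% of promoters and in Ier2 at -224. The interferon-stimulated response element GAAANNGAAA (3.41% of promoters) and the kappaB site (3.54%) had no match. No searched motif was found in the Fosl1 and Junb windows. A match describes letters only, and an absence says nothing beyond these bases.

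TIC changed the FOS family in opposite directions. Fos itself fell while Fosl1 and Fosl2, its later relatives, rose, and Junb, Jund and the survival gene Ier3 rose with them. In all, 5 of the 9 genes rose and 1 fell, called at a Benjamini-Hochberg adjusted p under 0.05 across all genes tested. The test was limma, two-sided, on log2(FPKM + 1), fitted to all 18 libraries with a mean for each group. Of all genes, 56.5% were called, 25.3% higher and 31.2% lower. The median log2 change was 0.75 for the 9 genes and -0.04 for all genes. Every log2 change given below is on that scale, which understates the change of genes at low FPKM. Adjusted p-values throughout are from this limma fit.

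**Figure D1:**
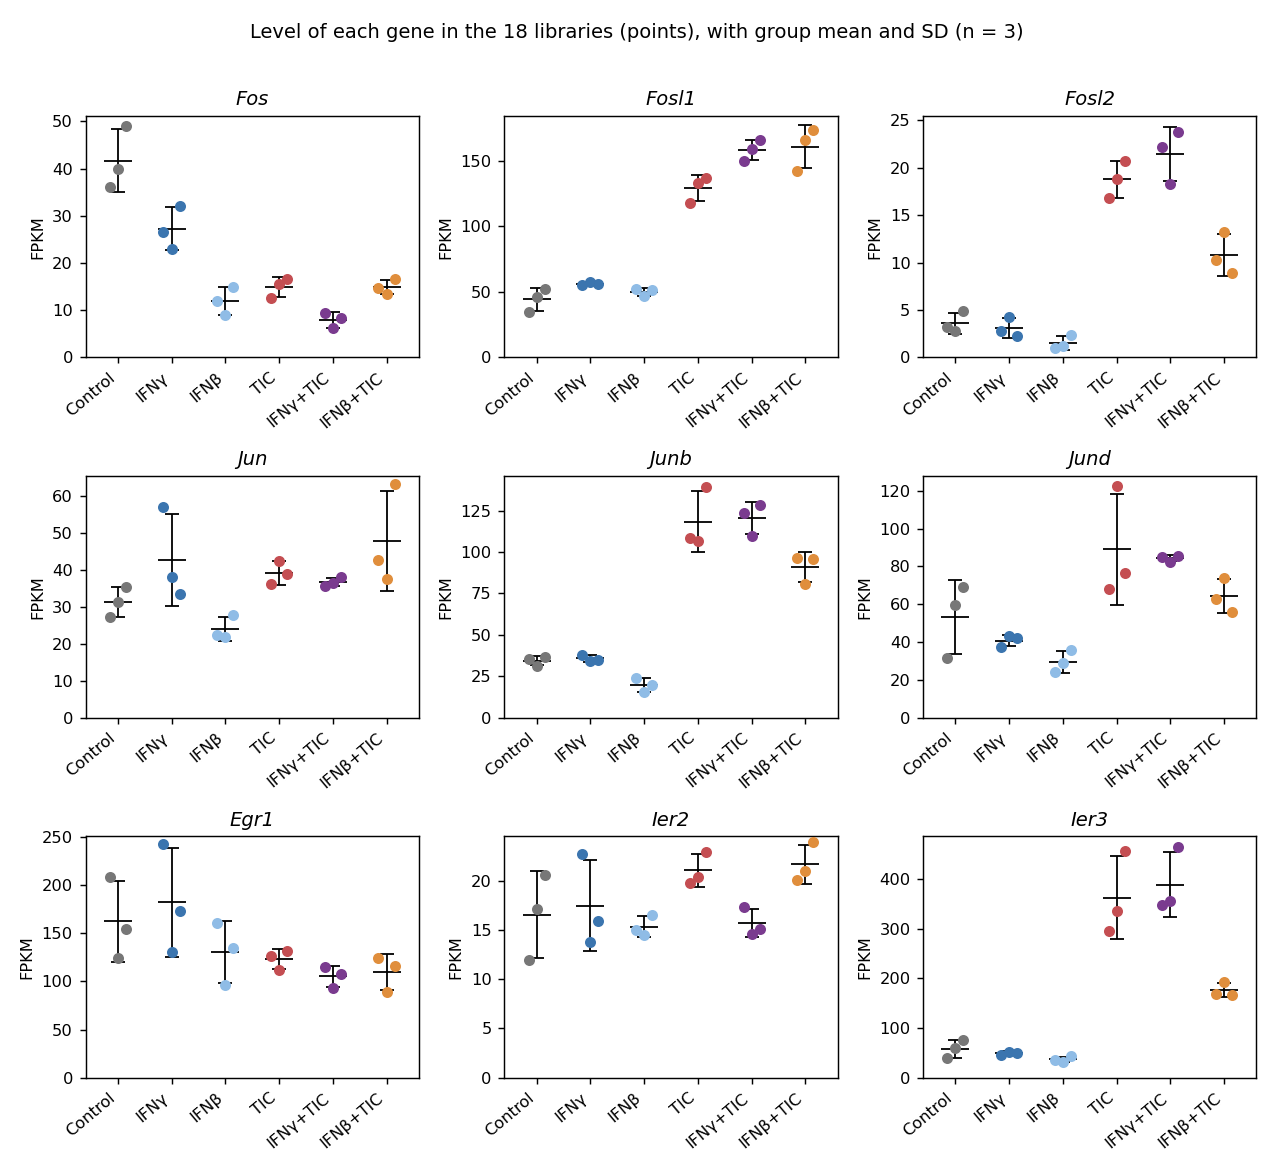
FPKM of each of the 9 genes (vertical axis, from 0) in the 18 libraries (points) of the 6 groups (horizontal axis), with group mean and SD (n = 3). Fos is highest in controls at 36.0 to 49.0 FPKM, whereas Fosl1, Fosl2, Junb and Ier3 are higher in every library with TIC than in any without it.

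Fos, the founding FOS gene, was at 36.0, 40.0 and 49.0 FPKM in control libraries and 12.5, 15.5 and 16.6 FPKM with TIC. The groups were far apart, and the highest TIC library was below the lowest control. Its log2 change was -1.42 (SE 0.18, adjusted p = 2.53e-06), with a control mean 2.80 times the TIC mean. Fosl1, which encodes FRA-1, was at 34.7, 46.0 and 52.4 FPKM in controls and 118, 133 and 137 FPKM with TIC. It thus rose 2.92-fold as Fos fell, with a log2 change of 1.54 (SE 0.11, adjusted p = 3.26e-09). Fosl2, which encodes FRA-2 and was the lowest of the FOS genes analysed in controls, went from 3.19, 2.76 and 4.85 FPKM to 16.8, 18.8 and 20.7 FPKM. Its log2 change was 2.13 (SE 0.21, adjusted p = 2.01e-07) and its ratio of means 5.22, the highest ratio among the FOS genes analysed with TIC.

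All 3 JUN genes had positive log2 changes with TIC, and Junb and Jund were called. Junb, whose product is known as a weaker activator than JUN at many sites, was at 35.1, 31.4 and 36.6 FPKM in controls and 108, 107 and 139 FPKM with TIC. Its log2 change was 1.75 (SE 0.13, adjusted p = 5.67e-09). Jun, the main JNK substrate of the family, was at 27.2, 31.4 and 35.4 FPKM in controls and 36.1, 42.4 and 38.9 FPKM with TIC. Those groups did not overlap, yet the log2 change of 0.32 (SE 0.18) had an adjusted p of 0.151 and was not called, though it was with only the 2 groups fitted (0.0437). Jund, the JUN gene usually expressed in resting cells, ran from 31.5 through 59.5 to 69.3 FPKM in controls and was at 67.9, 123 and 76.4 FPKM with TIC. The ranges overlapped, and control replicate 1 and TIC replicate 2 stood furthest from the rest of their groups. Its log2 change of 0.75 (SE 0.24, adjusted p = 0.0122) lost its call without control replicate 1 (0.42, adjusted p = 0.089), without TIC replicate 2 (0.50, adjusted p = 0.0858), and when only the 2 groups were fitted (adjusted p = 0.0781).

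Among the other immediate early genes, Ier3, which encodes a small protein that protects cells from TNF-induced death, moved most. It was at 39.7, 60.7 and 75.8 FPKM in controls and 296, 335 and 457 FPKM with TIC. That was a 6.17-fold rise, a log2 change of 2.63 (SE 0.19, adjusted p = 3.13e-09), and the highest ratio among the 9 genes in this comparison. Egr1, a zinc finger factor of the first wave, was at 208, 125 and 154 FPKM in controls and 126, 111 and 132 FPKM with TIC. The ranges overlapped. The log2 change of -0.37 (SE 0.22) was not called (adjusted p = 0.164), though it was with the replicate number in the fit (0.0102). Ier2, a small nuclear protein gene of the same wave, was at 11.9, 17.2 and 20.6 FPKM in controls and 19.8, 20.4 and 23.0 FPKM with TIC, a log2 change of 0.36 (SE 0.17) that was not called either (adjusted p = 0.0795). It was called without control replicate 3 (0.53, adjusted p = 0.0155) and after rescaling libraries by median ratios (adjusted p = 0.0402).

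**Figure D2:**
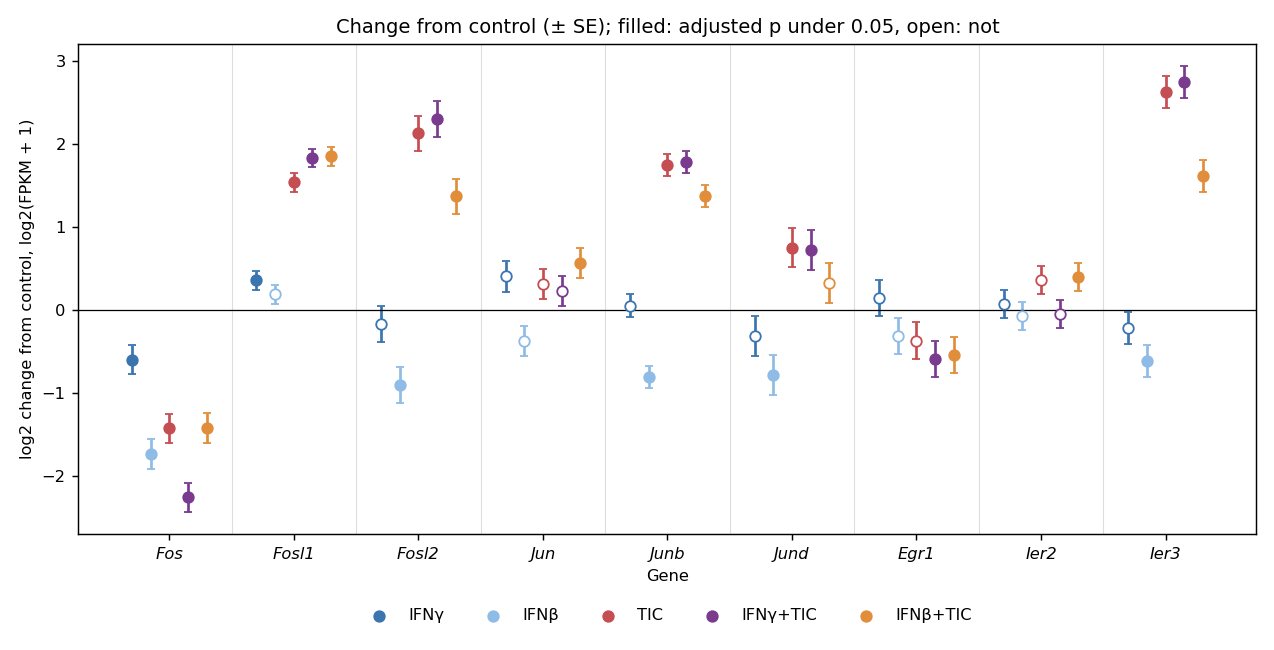
Change from control on the log2(FPKM + 1) scale (vertical axis) for each gene (horizontal axis) in the 5 treated groups, with SE. Filled points have an adjusted p under 0.05. Fos lies below 0 in all 5 groups, and Ier3 reaches 2.63 with TIC and 2.74 with IFNγ and TIC.

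With IFNγ alone, most of these genes were not called different from control. Fos fell and Fosl1 rose, so 2 of the 9 genes were called, against 14.3% of all genes, 7.11% higher and 7.17% lower. Their median log2 change was 0.06, and that of all genes was -0.05. Fos was at 26.6, 23.1 and 32.1 FPKM with IFNγ, below every control, a log2 change of -0.60 (SE 0.18, adjusted p = 0.0314). Fosl1 was at 55.2, 57.6 and 56.3 FPKM, above every control, a log2 change of 0.36 (SE 0.11, adjusted p = 0.0415). Both calls were weak. Fos lost its call without control replicate 2 or 3 or IFNγ replicate 1 or 2, at adjusted p-values of 0.0617, 0.119, 0.0713 and 0.13. Fosl1 kept its call in only 1 of the 6 fits that left out a library, the one without control replicate 3, with adjusted p-values up to 0.197 in the others, and with only the 2 groups fitted neither was called (0.0534 for Fos, 0.177 for Fosl1). Jun was at 56.9, 37.9 and 33.3 FPKM, with replicate 1 well above the others, and its log2 change of 0.41 was not called (adjusted p = 0.159). Jund, not called at -0.31 (adjusted p = 0.437), was called lower without control replicate 1 (-0.65, adjusted p = 0.0429).

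IFNβ alone lowered 4 of the 6 AP-1 genes and Ier3, and no gene of the 9 was called higher. Fos, Fosl2, Junb, Jund and Ier3 fell, 5 of 9, against 38.0% of all genes called, 8.86% higher and 29.1% lower. The median log2 change was -0.61 for the 9 genes and -0.16 for all genes. Fos was at 12, 9.02 and 15 FPKM with IFNβ, all below the lowest control of 36.0. The log2 change of -1.73 (SE 0.18, adjusted p = 8.79e-07) put it at 0.288 of control. Fosl2 was at 0.980, 1.16 and 2.32 FPKM, below every control, with a log2 change of -0.90 (SE 0.21, adjusted p = 0.00341). Junb was at 24.0, 15.2 and 19.4 FPKM, also below every control, with a log2 change of -0.80 (SE 0.13, adjusted p = 0.000176).

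The other falls with IFNβ were less firm. Jund was at 23.9, 29.0 and 35.6 FPKM, a range that overlapped the controls through control replicate 1, with a log2 change of -0.78 (SE 0.24, adjusted p = 0.0157). It lost its call without control replicate 2 or 3 or IFNβ replicate 1, at adjusted p-values of 0.0625, 0.0884 and 0.0679. Ier3 was at 36.5, 32.2 and 42.7 FPKM, overlapping the controls, with a log2 change of -0.61 (SE 0.19, adjusted p = 0.0195), and lost its call without control replicate 2 or 3 or IFNβ replicate 2, at 0.0587, 0.113 and 0.0779. Both calls were also lost when libraries were rescaled by median ratios, which moved the median of all genes from -0.16 to -0.03. The rescaled changes were -0.64 for Jund (adjusted p = 0.0538) and -0.46 for Ier3 (adjusted p = 0.0777), and with only the 2 groups fitted the adjusted p-values were 0.072 and 0.0747. Fosl1 stood apart from its family at 52.4, 46.8 and 51.2 FPKM, with a log2 change of 0.19 that was not called (adjusted p = 0.195). It was called higher after median-ratio rescaling (0.34, adjusted p = 0.0269) and without control replicate 3 (0.32, adjusted p = 0.0321). Jun, Egr1 and Ier2 had log2 changes of -0.37, -0.31 and -0.07, none of them called. Egr1 was called lower with the replicate number in the fit (adjusted p = 0.0377).

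With IFNγ and TIC together, Fos reached its lowest level of any group. It was at 9.47, 6.15 and 8.32 FPKM, below every TIC library, a log2 change from TIC alone of -0.83 (SE 0.18, adjusted p = 0.00187). It was the only one of the 9 genes called between IFNγ with TIC and TIC alone, where 29.2% of all genes were called, 7.42% higher and 21.8% lower. The median log2 change was -0.03 for the 9 genes and -0.12 for all genes. Fosl1, at 150.2, 159 and 166 FPKM, was above every TIC library, but its log2 change of 0.29 (SE 0.11) had an adjusted p of 0.0615. That value crossed the threshold after median-ratio rescaling (0.41, adjusted p = 0.0103), after rescaling to an equal sum (0.0499) and with only the 2 groups fitted (0.014). Ier2, at 17.4, 14.7 and 15.2 FPKM, was below every TIC library, with a log2 change of -0.40 (adjusted p = 0.0854, and 0.0122 with only the 2 groups fitted). Fosl2, Jun, Junb, Jund, Egr1 and Ier3 overlapped TIC alone, with log2 changes from -0.22 for Egr1 to 0.18 for Fosl2.

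With IFNβ and TIC together, the levels of Fosl2, Junb and Ier3 lay between control and TIC. From TIC alone, 1 of the 9 genes rose and 3 fell, against 41.4% of all genes called, 9.86% higher and 31.5% lower. These counts were near the shares of all genes, so they do not set the 9 genes apart. Their median log2 change was -0.18, and that of all genes was -0.15. Ier3 was at 169, 193 and 167 FPKM, below every TIC library, with a log2 change of -1.01 (SE 0.19, adjusted p = 0.00045). Fosl2 was at 10.3, 13.2 and 8.93 FPKM, also below every TIC library, with a log2 change of -0.76 (SE 0.21, adjusted p = 0.00932). Neither call was lost when any single library was left out or with any other setting tried.

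Junb was at 96.6, 80.6 and 95.8 FPKM with IFNβ and TIC, below the lowest TIC library, and its log2 change from TIC was -0.37 (SE 0.13, adjusted p = 0.0354). It lost its call after median-ratio rescaling (-0.20, adjusted p = 0.266), which moved the median of all genes from -0.15 to 0.00, and without TIC replicate 3 (0.189) or replicate 2 of IFNβ with TIC (0.146). Fosl1 was at 143, 166 and 174 FPKM, above every TIC library, with a log2 change of 0.31 (SE 0.11, adjusted p = 0.0357). That call was lost without TIC replicate 1 or 2, at 0.13 and 0.0592, and without replicate 2 or 3 of IFNβ with TIC, at 0.0994 and 0.127. Fos was at 14.6, 13.5 and 16.5 FPKM, in the range of TIC alone, and its log2 change was 0.00 (SE 0.18, adjusted p = 0.988). Jun, Jund, Egr1 and Ier2 had log2 changes from TIC of 0.25, -0.42, -0.18 and 0.04, none of them called.

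Set against control, the combinations carried most of the changes seen with TIC. IFNγ with TIC gave 5 genes higher and 2 lower, against 63.2% of all genes called, 22.9% higher and 40.4% lower, with a median log2 change of 0.72 for the 9 genes and -0.15 for all genes. IFNβ with TIC gave 6 higher and 2 lower, against 62.1% of all genes, 19.3% higher and 42.8% lower, with medians of 0.57 and -0.20. Fos was 5.22 times higher in control than with IFNγ and TIC (log2 change -2.25, SE 0.18, adjusted p = 5.18e-09) and 2.80 times higher than with IFNβ and TIC (-1.42, SE 0.18, adjusted p = 2.2e-06). Fosl1 rose by 1.83 and 1.85, Fosl2 by 2.30 and 1.37, Junb by 1.78 and 1.38, and Ier3 by 2.74 and 1.62 on the log2 scale, with adjusted p-values of at most 2.95e-05. Every comparison with control uses the same 3 control libraries, so the changes are not independent of each other.

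Egr1, Jun, Jund and Ier2 were called in either or both combinations, and each of these calls was lost when some single library was left out. Egr1 was at 115, 93.4 and 108 FPKM with IFNγ and TIC and at 124, 88.8 and 116 FPKM with IFNβ and TIC, both below the lowest control of 125. Its log2 changes were -0.59 (SE 0.22, adjusted p = 0.0257) and -0.54 (SE 0.22, adjusted p = 0.0393), and both calls were lost without control replicate 1 (0.143 and 0.197) and after median-ratio rescaling (0.11 and 0.225). The first was also lost without replicate 2 of IFNγ with TIC (0.0897). The second was also lost without control replicate 3 (0.0645) or replicate 2 or 3 of IFNβ with TIC (0.164 and 0.0529). Across the settings that left out no single library, the adjusted p-values ran from 0.000237 to 0.11 and from 0.000538 to 0.225. Jund rose by 0.72 with IFNγ and TIC (SE 0.24, adjusted p = 0.0135), at 85.1, 82.6 and 85.3 FPKM, and lost the call without control replicate 1 (0.39, adjusted p = 0.103). Jund with IFNβ and TIC was at 62.9, 74.1 and 56.1 FPKM, overlapping the controls, and was not called (0.33, adjusted p = 0.24).

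Jun was called against control only with IFNβ and TIC, at 42.7, 37.5 and 63.2 FPKM, a log2 change of 0.57 (SE 0.18, adjusted p = 0.0125). Replicate 3 was the high library, and without it the change was 0.35 (adjusted p = 0.0901), while without control replicate 1 it was 0.47 (adjusted p = 0.0575). Ier2 was at 20.1, 21.0 and 23.9 FPKM with IFNβ and TIC, a log2 change of 0.40 (SE 0.17) with an adjusted p of 0.0499. It lost the call without control replicate 1 (0.306) or 2 (0.0621) and without replicate 1 (0.0569), 2 (0.0788) or 3 (0.152) of its own group, so it stood at the threshold.

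Adding TIC to an interferon asked whether the TIC pattern appeared on an interferon background. On IFNγ, 5 genes rose and 2 fell, against 58.7% of all genes called, 22.2% higher and 36.6% lower. Ier3 went up 7.93-fold (log2 change 2.95, SE 0.19, adjusted p = 6.8e-10), Fosl2 6.91-fold (2.47, SE 0.21, adjusted p = 2.89e-08), Junb by 1.72, Fosl1 by 1.47 and Jund by 1.03, while Fos fell by 1.66 and Egr1 by 0.74. The Egr1 call was lost without IFNγ replicate 1, its highest library at 243 FPKM (-0.51, adjusted p = 0.0566), and held in every other fit tried. On IFNβ, 7 genes rose, against 46.2% of all genes called, 18.6% higher and 27.7% lower. Fosl2 went up 7.27-fold (2.27, SE 0.21, adjusted p = 1.62e-07), Ier3 by 2.22, Junb by 2.18, Fosl1 by 1.66, Jund by 1.11, Jun by 0.94 and Ier2 by 0.47.

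On IFNβ, Fos did not pass the test when TIC was added, with a log2 change of 0.31 (SE 0.18, adjusted p = 0.163), called higher only without IFNβ replicate 3 (0.47, adjusted p = 0.0472). The Ier2 call on IFNβ (adjusted p = 0.0304) was lost without IFNβ replicate 1 or 2 (0.0743 and 0.0817) and without replicate 2 or 3 of IFNβ with TIC (0.0561 and 0.102).

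An interaction term asked whether an interferon acted alike with and without TIC. It is the log2 change when interferon was added to TIC, less the log2 change when it was added to PBS. For IFNβ it was called for Fos alone among the 9 genes, against 15.8% of all genes, 7.16% higher and 8.66% lower. Fos fell by 1.73 with IFNβ on a control background and moved by 0.00 on TIC, an interaction of 1.74 (SE 0.25, adjusted p = 0.000169). The call held without any single library and under every other setting tried. Jun and Junb had interactions of 0.62 (adjusted p = 0.115) and 0.44 (adjusted p = 0.133), and Junb was called without IFNβ replicate 1 (0.59, adjusted p = 0.033). For IFNγ, none of the 9 genes was called by limma, against 13.9% of all genes, 3.64% higher and 10.2% lower, and none had an unadjusted p under 0.05. The lowest unadjusted p was 0.0614, for Ier2 at -0.48 (SE 0.24). The IFNγ interaction for Fos was -0.23 (SE 0.25, adjusted p = 0.595).

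**Figure D3:**
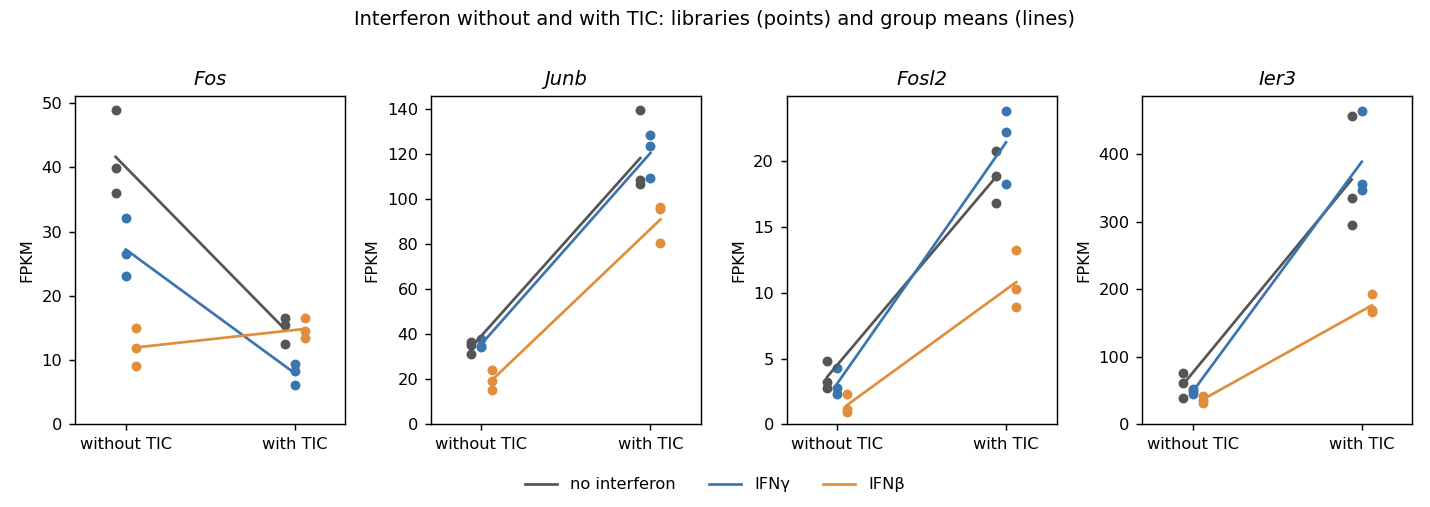
FPKM (vertical axis, from 0) without and with TIC (horizontal axis) for no interferon, IFNγ and IFNβ, with libraries as points and group means as lines. For Fos the IFNβ line runs from a mean of 12 to 14.9 FPKM, whereas the line without interferon falls from 41.6 to 14.9 and the IFNγ line from 27.2 to 7.98.

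The 2 interferons were also set side by side. Without TIC, IFNβ gave lower values than IFNγ for 4 of the 9 genes and higher values for none, against 25.1% of all genes called, 5.77% higher and 19.3% lower. Fos differed by -1.13 (SE 0.18, adjusted p = 0.000166), Junb by -0.86 (SE 0.13, adjusted p = 0.000161), Jun by -0.78 (SE 0.18, adjusted p = 0.00501) and Fosl2 by -0.73 (SE 0.21, adjusted p = 0.0195). The Fosl2 call was lost without IFNγ replicate 2 (0.0942), without IFNβ replicate 1 or 2 (0.0793 and 0.0745) and with only the 2 groups fitted (0.0719). Egr1, at -0.46 (adjusted p = 0.137), was called lower without IFNγ replicate 2 (-0.68, adjusted p = 0.0379). It was also called with the replicate number in the fit (adjusted p = 0.00727). Jund (-0.47, adjusted p = 0.161) and Ier3 (-0.40, adjusted p = 0.142) were lower in libraries that did not overlap, and were called with only the 2 groups fitted (0.0487 and 0.0439).

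With TIC present, the order of the interferons turned for Fos. Fos was 1.86-fold higher with IFNβ and TIC than with IFNγ and TIC (0.84, SE 0.18, adjusted p = 0.00218), in libraries that did not overlap. Ier3 was lower with IFNβ and TIC, by a log2 difference of -1.13 (SE 0.19, adjusted p = 0.000327) and so was Fosl2, at -0.93 (SE 0.21, adjusted p = 0.00412). Junb was also lower, at -0.40 (adjusted p = 0.0385), a call lost without replicate 1 or 3 of IFNγ with TIC (0.103 and 0.134), without any 1 of the 3 libraries of IFNβ with TIC (0.0528 to 0.151) and after median-ratio rescaling (0.0629). Ier2 (0.44, adjusted p = 0.0727) and Jund (-0.39, adjusted p = 0.271) were not called, in libraries that did not overlap. Both were called with only the 2 groups fitted (0.013 and 0.0201), and Ier2 also after median-ratio rescaling (0.0439). In all, 1 gene was higher and 3 were lower, against 22.4% of all genes called, 9.72% higher and 12.7% lower.

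The make-up of the FOS family, taken here as Fos, Fosl1 and Fosl2 without Fosb, turned over with these changes. Fos held 46.6% ± 1.91 (SD, n = 3) of the family's summed FPKM in controls and Fosl1 held 49.4% ± 2.46, near equal parts. With IFNγ the Fos share was 31.3% ± 4.13, with IFNβ 18.7% ± 3.04 and with TIC 9.09% ± 0.534. It was lowest with IFNγ and TIC at 4.25% ± 0.93, and 8.0% ± 0.903 with IFNβ and TIC. The sum itself was 89.6 ± 16.2 FPKM in controls, 63.6 ± 5.94 with IFNβ and 163 ± 13.9 with TIC, so a fall in share went with a smaller family sum with IFNβ and a larger one with TIC. Fosl2 held 4.0% ± 0.775 in controls and 11.5% ± 0.337 with TIC. The combinations stood at 11.4% ± 1.25 for IFNγ with TIC and 5.82% ± 1.21 for IFNβ with TIC.

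The ratio of Fosl1 to Fos FPKM, taken within each library, was 0.962 to 1.15 in controls, 1.75 to 2.50 with IFNγ and 3.42 to 5.19 with IFNβ. It was 8.27 to 9.44 with TIC, 9.76 to 12.3 with IFNβ and TIC, and 15.9 to 25.9 with IFNγ and TIC. No pair of groups overlapped in this ratio, which was not tested.

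In the JUN family, Junb gained share with TIC. It held 29.7% ± 6.74 of the summed JUN FPKM in controls, 30.0% ± 1.41 with IFNγ and 26.9% ± 6.34 with IFNβ. With TIC it held 48.3% ± 8.07. Its share was 49.8% ± 1.72 when IFNγ was added to TIC and 44.8% ± 2.91 when IFNβ was added. The Junb share in every library with TIC, at least 39.3%, was above that in every library without it, at most 37.4%. The JUN sum was 119 ± 23.9 FPKM in controls, 73.0 ± 8.85 with IFNβ and 246 ± 30.7 with TIC. These shares were not tested, and FPKM shares of RNA say nothing of protein or of dimers.

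**Figure D4:**
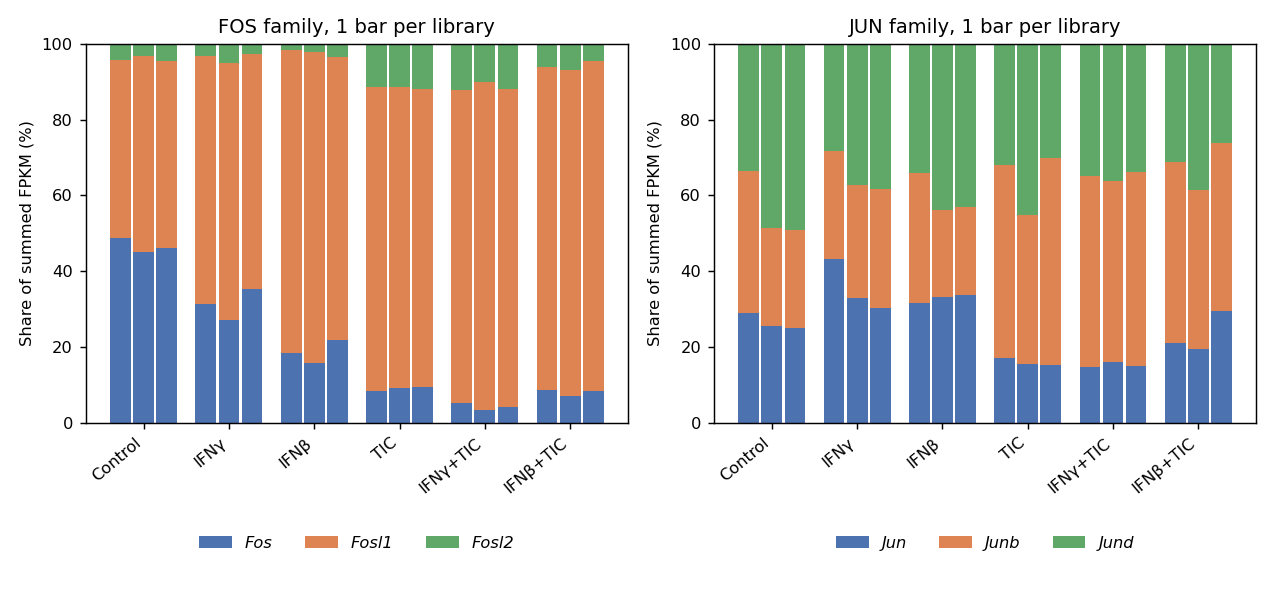
Share of the summed FPKM (vertical axis, 0 to 100%) held by Fos, Fosl1 and Fosl2 in the FOS family and by Jun, Junb and Jund in the JUN family, with 1 bar per library in the 6 groups. The Fos share runs from 45.0% to 48.8% in controls and from 3.35% to 5.21% with IFNγ and TIC.

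The order of the groups showed where levels could and could not be told apart. For Fos the means ran from control (41.6 FPKM) over IFNγ (27.2) to IFNβ with TIC (14.9), TIC (14.9), IFNβ (12) and IFNγ with TIC (7.98). The steps within the middle 3 were not called, while the other steps were. For Fosl1 the 3 groups with TIC (161, 158 and 129 FPKM) stood above the 3 without (56.4, 50.1 and 44.4 FPKM), and the step between 129 and 56.4 was the only one called. For Ier3 the steps called were those from TIC (363 FPKM) to IFNβ with TIC (176 FPKM) and from there to control (58.7 FPKM). No neighbours were called different for Jun, Jund, Egr1 or Ier2.

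Some values moved with the replicate number in more than one group. Replicate 2 was the lowest library in all 6 groups for both Egr1 and Junb, and replicate 1 was the lowest in 5 of 6 groups for Fosl1. The labels do not say what the numbers stand for.

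The genes whose pattern was most like that of each member were found by Pearson's r of log2(FPKM + 1) over the 18 libraries, among 7632 genes with a mean of at least 5 FPKM. All values are descriptions over libraries of which 9 had TIC and 9 did not. Fosl1 was most like Has2 (hyaluronan synthase, r = 0.987), Emp1 (0.983) and the chemokine gene Ccl20 (0.982). Has2 went from 1.91 FPKM in controls to 30.7 FPKM with TIC. Fosl2 was most like Sh3gl3 and Ets1 (both 0.984) and Mdm2 (0.981), and Junb also had Sh3gl3 at its head (0.981). Ier3 was most like Tsku, Map6 and the cytokine gene Lif (all 0.988), and Lif went from 2.62 FPKM in controls to 47.0 FPKM with TIC and 13.8 FPKM with IFNβ and TIC.

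Fos had its own neighbours, Lgmn, the lysosomal protease legumain (0.927), Ngef (0.919) and Prodh1 (0.914). Ngef fell from 13.9 FPKM in controls to 3.76 FPKM with IFNγ and TIC, its lowest group, as for Fos. Jund was most like Tmeff1 (0.956), and Egr1 most like Nprl3 (0.863). Jun and Ier2 had only looser neighbours, headed by Snf8 (0.775) and Pdlim4 (0.788).

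Other bZIP factors that pair with FOS or JUN proteins, or bind like sites, were counted as a list of 13, of which 10 were in the table and tested. Levels of list genes are means ± SD (n = 3). With TIC 6 of the 10 rose, against 25.3% of all genes, with a median log2 change of 0.46 against -0.04 for all genes. Maff, a small MAF gene, went from 1.77 ± 0.436 FPKM in controls to 16.8 ± 2.88 FPKM with TIC (2.69, SE 0.15, adjusted p = 7.33e-11). Batf3, whose product pairs with JUN proteins and works beside IRF factors, went from 1.74 ± 0.884 to 12.7 ± 1.22 FPKM (2.38, SE 0.20, adjusted p = 2.32e-08). With IFNγ on TIC, 4 of the 10 rose, against 7.42% of all genes, and Batf3 reached 52.4 ± 3.62 FPKM (1.96 from TIC, SE 0.20, adjusted p = 1.08e-06). With IFNβ alone, 6 of the 10 fell, against 29.1% of all genes.

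Atf3, a stress-induced factor that pairs with JUN proteins, went the opposite way to Fos when IFNγ joined TIC. It was at 22.8 ± 11.1 FPKM in controls, where the lowest of the 3 libraries was at 10 FPKM, and at 20.5 ± 2.43 FPKM with TIC, which was not called (-0.01, adjusted p = 0.98) but was called lower without control replicate 1 (-0.50, adjusted p = 0.037). IFNγ alone gave 8.33 ± 2.69 FPKM (-1.25, SE 0.29, adjusted p = 0.00667), a call lost with only the 2 groups fitted (0.114), and IFNβ alone gave 4.06 ± 0.714 FPKM (-2.10, SE 0.29, adjusted p = 2.52e-05). IFNγ with TIC gave 64.7 ± 3.17 FPKM, a rise from TIC of 1.62 (SE 0.29, adjusted p = 0.000406). Both interactions were called, at 2.86 for IFNγ (adjusted p = 0.000153) and 2.50 for IFNβ (adjusted p = 0.000512).

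Of 30 other immediate early genes, 23 were tested, and 14 of them rose and 3 fell with TIC, against 25.3% of all genes higher and 31.2% lower, with a median log2 change of 0.92. Ier5, a relative of Ier2, was at 32.4 ± 0.236 FPKM in controls and 122 ± 4.26 FPKM with TIC (1.88, SE 0.07, adjusted p = 6.86e-13). It was lower with IFNβ and TIC at 80.2 ± 8.89 FPKM (-0.61 from TIC, SE 0.07, adjusted p = 3.79e-06). Rhob, a small GTPase gene, went from 28.1 ± 3.08 to 87.9 ± 1.76 FPKM with TIC (1.62, SE 0.10, adjusted p = 1.79e-10), and Klf4 from 0.952 ± 0.280 to 4.40 ± 1.02 FPKM (1.46, SE 0.17, adjusted p = 9.92e-07). With IFNβ alone 3 of the 23 rose and 10 fell, against 8.86% of all genes higher and 29.1% lower. The 10 falls became 5 without control replicate 1, 6 without IFNβ replicate 1 or 3, 5 with only the 2 groups fitted, and 3 after median-ratio rescaling. Ctgf rose with TIC and with each interferon alone, from 0.959 ± 0.486 FPKM to 7.72 ± 1.95 with TIC, 8.06 ± 6.29 with IFNγ and 7.72 ± 2.07 with IFNβ (2.16, 1.97 and 2.16, adjusted p = 0.000247, 0.00299 and 0.000585). The IFNγ call was lost with only the 2 groups fitted (0.0577).

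Upstream of these genes, 7 of 11 factors that bind immediate early promoters were tested, and 3 rose with TIC, against 25.3% of all genes, with a median log2 change of 0.27. Elk3, a partner of serum response factor at CArG boxes, went from 16.9 ± 1.57 to 41.1 ± 3.70 FPKM (1.24, SE 0.10, adjusted p = 1.08e-08), and Atf1, which binds cAMP response elements, from 15.6 ± 1.5 to 23.2 ± 2.56 FPKM (0.54, SE 0.10, adjusted p = 0.00023). Srf itself was at 2.13 ± 0.119 and 2.85 ± 0.340 FPKM (0.29, adjusted p = 0.0383), a call lost without any 1 of the 3 controls (0.0525 to 0.102) or without TIC replicate 2 (0.158). Of the MAP kinase cascade, 20 of 21 genes were tested, and 8 rose and 6 fell with TIC, against 25.3% of all genes higher and 31.2% lower, so the share that fell was near that of all genes. Map3k8, a kinase activated by TNF and IL1 signals, was at 0.0885 ± 0.153 FPKM in controls and 8.74 ± 1.34 FPKM with TIC (3.16, SE 0.16, adjusted p = 1.82e-11). Mapk3, which encodes ERK1, went from 43.7 ± 5.29 to 114 ± 9.10 FPKM with TIC (1.37, SE 0.12, adjusted p = 2.52e-08) and was at 55.1 ± 0.588 FPKM with IFNβ and TIC (-1.04 from TIC, SE 0.12, adjusted p = 2.32e-06). Rps6ka1, a kinase below ERK, fell with TIC from 72.4 ± 8.89 to 17.4 ± 1.02 FPKM (-1.99, SE 0.11, adjusted p = 1.34e-10).

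Among co-repressors and turnover factors, 8 of 9 were tested and 2 rose with TIC, a share near the 25.3% of all genes. They were Nab1, a co-repressor of EGR1 (19.2 ± 2.33 to 35.8 ± 1.93 FPKM, 0.87, SE 0.12, adjusted p = 8.1e-06), and Cops5, a JUN co-activator (74.9 ± 3.73 to 109 ± 5.19 FPKM, 0.53, SE 0.07, adjusted p = 2.17e-06).

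Genes known from other work to carry AP-1 sites formed a list of 16, of which 15 were tested. The list was chosen with earlier results of these data known, so its counts are descriptions. With TIC 14 of the 15 rose, against 25.3% of all genes, with a median log2 change of 2.87 against -0.04 for all genes. Mmp9, a matrix protease gene, went from 0.418 ± 0.0780 to 60.9 ± 5.73 FPKM (5.45, SE 0.10, adjusted p = 2.4e-16). Plaur, the urokinase receptor gene, went from 1.32 ± 0.863 to 43.7 ± 8.29 FPKM (4.32, SE 0.24, adjusted p = 1.09e-10), and Ptgs2, which encodes the inducible cyclooxygenase, from 0.344 ± 0.180 to 25.6 ± 1.84 FPKM (4.31, SE 0.23, adjusted p = 4.82e-11). Many of these genes also carry sites for NF-κB, and these data do not tell which factor acted.

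IFNβ on TIC lowered 9 of these 15 genes and raised 2, against 31.5% of all genes lower and 9.86% higher, with a median log2 change of -0.76 against -0.15 for all genes. Mmp9 was then at 8.35 ± 0.337 FPKM (-2.72 from TIC, SE 0.10, adjusted p = 5.11e-13), Plaur at 11.4 ± 3.29 FPKM (-1.87, SE 0.24, adjusted p = 1.11e-05) and Ptgs2 at 6.22 ± 2.42 FPKM (-1.93, SE 0.23, adjusted p = 3.99e-06). Ccl2, a chemokine gene, stayed near its TIC level of 10980 ± 1409 FPKM at 11000.0 ± 438 FPKM (0.01, SE 0.16, adjusted p = 0.973). With IFNγ on TIC, 4 of the 15 were lower and 1 was higher, shares near the 21.8% and 7.42% of all genes. The median log2 change was -0.07 for the list and -0.12 for all genes. Mmp9 was 1 of those lower, at 28.0 ± 3.62 FPKM (-1.10, SE 0.10, adjusted p = 3.17e-07). Mmp9, Plaur and Ptgs2 were thus lower with IFNβ and TIC than with TIC. Of the 9 members, Fosl2, Junb and Ier3 were also lower and Fosl1 was higher, while Fos, Jun, Jund, Egr1 and Ier2 were not called. Any link between the list and the members was not tested.

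Summed levels of marker genes differed between groups as well, and their part in the results above was not tested. All 9 astrocyte markers were in the table, and their summed level was 3000.0 to 3290.0 FPKM in controls, 1320.0 to 1350.0 with TIC and 884 to 905 with IFNγ and TIC. Most of the control sum came from S100b (1351 FPKM), Aldoc (729 FPKM) and Gfap (440.0 FPKM), and with TIC 3 of the 9 were called higher and 4 lower, with a median log2 change of -0.34. Of 9 markers of microglia and macrophages, 3 were in the table, with a summed level of 1.0 to 7.20 FPKM in controls and at most 8.76 FPKM in any library. Of 8 oligodendrocyte lineage markers 7 were in the table, with a summed level of 879 to 1120.0 FPKM in controls, mostly Olig1 at 789 FPKM and Olig2 at 177 FPKM, against 258 to 289 FPKM with TIC. The mature markers Mbp and Mog were at most at 2.41 and 1.81 FPKM in any library. Of 6 neuronal markers 4 were in the table, at 40.6 to 50.2 FPKM in controls and 55.0 to 62.9 FPKM with TIC, mostly Snap25. The neuronal sum was below every control with IFNγ (26.7 to 35.8 FPKM), IFNβ (22.0 to 25.2 FPKM) and IFNβ with TIC (15.8 to 18.4 FPKM), and was 41.9 to 49.7 FPKM with IFNγ and TIC. Of 6 pericyte and fibroblast markers 4 were in the table, at 32.2 to 47.8 FPKM in controls and 27.8 to 32.4 FPKM with TIC, mostly Tagln. That sum was above every control with IFNγ (65.5 to 93.7 FPKM), IFNβ (70.0 to 96.2 FPKM), IFNγ with TIC (77.9 to 93.9 FPKM) and IFNβ with TIC (50.5 to 58.9 FPKM). None of the 5 endothelial markers was in the table, so their levels were not analysed here. In bulk RNA, fewer cells of a type and less RNA per cell cannot be told apart.

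The authors' deposited table gives its own log2 change and adjusted p-value for 40 of the member comparisons with control, and none for Jund. The call was the same as here in 34 of the 40, and in none of the 40 were opposite directions called. Jun was called higher in the authors' deposited table with IFNγ (0.43, adjusted p = 0.0433), TIC (0.38, adjusted p = 0.00132) and IFNγ with TIC (0.40, adjusted p = 8.59e-05), where it was not called here. Fosl1 with IFNβ (0.38, adjusted p = 0.0161) and Ier2 with TIC (0.44, adjusted p = 0.0251) were likewise called in the authors' deposited table alone. Egr1 with IFNβ and TIC was called here alone, with a value of -0.31 (adjusted p = 0.152) in the authors' deposited table.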

How the data were processed

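Per the labels' protocols, cDNA came from SMART-seq HT amplification and was sequenced as Nextera XT libraries, with no molecular identifiers named. Reads were processed with HISAT2, StringTie and DESeq2 and the mouse build mm10, per the submitters' processing notes, although per the file headers the identifiers are rat Ensembl identifiers. No source used here gives the tool versions. Per the file headers, the authors deposited FPKM for each library, with a log2 fold change and an adjusted p-value per gene and treatment. The deposited table held 10434 rows, none with a mean under 0.501 FPKM. The 3 rows that named no gene were dropped (0.012% of any library's FPKM or less), and 17 symbols that a spreadsheet had turned into numbers were kept under their Ensembl identifier. Median FPKM per library was 12.6 to 14.6, 81 to 180 genes were at 0, and libraries of a group correlated at r = 0.982 to 0.991.

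A pseudocount of 1 was added and log2 values were fitted with limma 3.58.1 in R 4.3.3, with a trend in the prior variance and all 6 groups sharing 1 spread. Alternatives were a pseudocount of 0.1, no filter, median-ratio scaling, rescaling to an equal sum (TPM), fitting only the groups compared, a replicate block, and leaving out each library. The fit was tested on simulated data. The members, lists and tests were chosen with earlier results of these data known. From each list, the text names genes among the up to 4 called genes with the highest absolute change in the comparisons of TIC, IFNγ or IFNβ with control, and likeness used the 3 highest correlations per member. The stretches of promoter shown were chosen after the matches were seen.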

Additional observations from a re-analysis of the deposited data

Results flagged for a closer look

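The effect of IFNβ on Fos differed with and without TIC, and that difference itself passed the test. The interaction was 1.74 on the log2(FPKM + 1) scale (limma, SE 0.25, adjusted p = 0.000169). IFNβ alone lowered Fos from a mean of 41.6 to 12 FPKM, while with TIC present the means without and with IFNβ were both 14.9 FPKM. The IFNβ library nearest to controls was at 15 FPKM and the lowest control at 36.0 FPKM.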

How the results depend on the processing

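Of the 117 member changes, leaving out each library in turn lost 50 calls and gained 6 in 810 values, median-ratio scaling lost 6 and gained 4, fitting only the groups compared lost 7 and gained 7, and rescaling to an equal sum lost 1 and gained 1. No called change turned its direction. Counts of members called moved as follows, and the cause was not tested. With only the groups compared in the fit, IFNγ against control went from 2 to 0, IFNβ against control from 5 to 3, and IFNγ with TIC against TIC from 1 to 3. The last was 2 with median-ratio scaling, with rescaling to an equal sum and with the replicate block. Leaving out a library gave 0 to 2 for IFNγ against control, 3 to 5 for IFNβ against control, 5 to 7 for IFNβ with TIC against control, 2 to 4 for IFNβ with TIC against TIC and 1 to 2 for the IFNβ interaction. Over all 10296 genes tested, IFNγ against control gave 1470 calls, and 804 with only those groups fitted. The same change of fit took IFNβ against control from 3909 to 2885 calls. IFNγ with TIC against TIC went from 3006 to 3324 calls, so in all 3 comparisons the members moved in the direction of all genes. For that last comparison, median-ratio scaling gave 2312 calls over all genes, rescaling to an equal sum 3129 and the replicate block 2997. Median-ratio scaling moved the split of higher against lower calls by over 10 points in 11 comparisons, for IFNβ from 912 and 2997 to 1473 and 1641. Over all genes tested, replicate numbers showed little pairing of the libraries. Of 45 same-number pairs, 6 had a correlation of deviations over 0.1, and a library correlated best with its own number in 29 of 90 cases. Single members did go with the numbers, as replicate 2 was lowest in all 6 groups for Egr1 and Junb. With the replicate block, Egr1 was called lower with IFNβ (-0.31, adjusted p = 0.0377), with TIC (-0.37, adjusted p = 0.0102) and with IFNβ against IFNγ (-0.46, adjusted p = 0.00727), Fosl1 was called with IFNγ and TIC against TIC (0.29, adjusted p = 0.0289), and the Ier2 call with IFNβ and TIC was lost (adjusted p = 0.0513). The pseudocount of 0.1 and the missing filter changed 1 member call each, also Ier2 with IFNβ and TIC. Without read counts, the depth behind low values such as Fosl2 with IFNβ is unknown.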
